A study of Rattus norvegicus with 6 samples.

Results

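The genes described here are the 3 peroxisome proliferator-activated receptors (Ppara, Ppard and Pparg), the PGC-1 coactivators Ppargc1a and Ppargc1b, and 4 genes of fuel use that lie downstream of them in many tissues, namely Pdk4, Cpt1a, Angptl4 and Ucp2. They were taken by symbol and are 9 of the 20264 rows of a combined table of raw read counts. RNA-seq was performed on 6 libraries of primary wild-type NPCs, the cells of the gelatinous core of the intervertebral disc, from the tails of male Sprague-Dawley rats weighing 120 to 150 g. They fall into 3 of the TBHP group and 3 of the TBHP+FGF21 group. The organic peroxide tert-butyl hydroperoxide (TBHP) was used to bring on oxidative stress and senescence, and all 6 libraries had been exposed to it, the controls included. The TBHP+FGF21 group received recombinant rat FGF21 together with TBHP. Replicate 1 of that group carries FGF21 in its treatment label, whereas replicates 2 and 3 carry FGF22 and FGF23. The protocol and the design text name FGF21 for the whole group, and all 3 libraries were kept in it. The comparison therefore asks what FGF21 changed on top of TBHP, and no untreated cells were used here. Replicates are called biological by the submitters, but it is not stated whether they came from separate rats, so the p-values measure only the spread between these samples, which may be technical.

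PPARs are nuclear receptors for fatty acids and their derivatives. They bind DNA as heterodimers with retinoid X receptors and recruit coactivators, among them PGC-1α and PGC-1β (encoded by Ppargc1a and Ppargc1b), which also drive mitochondrial gene programmes together with the oestrogen-related receptors. FGF21 is a fasting and stress hormone that signals through an FGF receptor bound to the co-receptor β-Klotho. In liver and adipose tissue it is known as a target of PPARα and as a partner of PPARγ, and the switch to burning fat that accompanies it is commonly read from CPT1A, the gate for fatty acids into mitochondria, and PDK4, the kinase that shuts pyruvate dehydrogenase.

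Promoter sequence from RefSeq (assembly GRCr8) was matched by symbol for 8 of the 9 genes, Pparg with a pair of start sites, giving 9 windows of 250 bases before and 50 after the start. The 4 shown are those of Pdk4 and Pparg, the genes whose groups did not overlap, and of Ppargc1a, whose window alone held a cAMP response element. Each is the 250 bases before the start on the gene's own strand. They are Pdk4 at chr4:34568330-34568579 (minus strand), the first Pparg start at chr4:150096808-150097057 (plus strand), the other Pparg start at chr4:150154522-150154771 (plus strand) and Ppargc1a at chr14:63634058-63634307 (plus strand). Capitals mark a GC box (GGGCGG, or CCGCCC on the other strand) in Pdk4 and Pparg and the cAMP response element (TGACGTCA) in Ppargc1a.
Pdk4: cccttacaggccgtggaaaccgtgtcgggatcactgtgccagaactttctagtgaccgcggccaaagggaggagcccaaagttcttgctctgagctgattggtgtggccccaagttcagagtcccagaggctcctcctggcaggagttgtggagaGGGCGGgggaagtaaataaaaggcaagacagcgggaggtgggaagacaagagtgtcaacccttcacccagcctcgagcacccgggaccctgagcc
Pparg, first start: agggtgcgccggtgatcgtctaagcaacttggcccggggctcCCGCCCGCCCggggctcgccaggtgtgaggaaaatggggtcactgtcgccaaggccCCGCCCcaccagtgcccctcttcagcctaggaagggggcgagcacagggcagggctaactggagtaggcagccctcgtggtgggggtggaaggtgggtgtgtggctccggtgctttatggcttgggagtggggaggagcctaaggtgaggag
Pparg, other start: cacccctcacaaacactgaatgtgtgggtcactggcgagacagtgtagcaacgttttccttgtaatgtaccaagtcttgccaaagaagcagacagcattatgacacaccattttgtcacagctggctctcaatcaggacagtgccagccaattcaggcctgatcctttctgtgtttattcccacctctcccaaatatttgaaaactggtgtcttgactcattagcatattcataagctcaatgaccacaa
Ppargc1a: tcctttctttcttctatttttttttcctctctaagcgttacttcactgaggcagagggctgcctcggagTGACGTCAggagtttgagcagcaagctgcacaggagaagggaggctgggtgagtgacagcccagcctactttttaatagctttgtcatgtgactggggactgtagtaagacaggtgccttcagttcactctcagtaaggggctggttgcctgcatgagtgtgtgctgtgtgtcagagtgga

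The GC boxes of Pdk4 began 95 bases before the start and at base 33 after it (outside the stretch shown), those of the first Pparg start 208, 204 and 152 bases before it, of which the first pair overlap, and the element of Ppargc1a 181 bases before it. Both strands were searched for 4 motifs that do not overlap each other. The strict PPAR response element (DR1, direct repeats of AGGTCA with 1 base between) was in none of the 9 windows and in 0.0538% of all 33469 rat promoters. The FOXO element GTAAACA was also in none, against 3.78% of all promoters, and TGACGTCA was in 1 window, against 1.83%. GGGCGG was in 5 of the 9 windows, those of Angptl4, Pdk4, Ppara, Ppargc1b and the first Pparg start, against 33.1% of all promoters. These are matches of letters in short windows, and a missing match says only that the letters are not there.

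Libraries held 18277732 to 22426190 counts, and a count of 0 allows up to 3 counts, or 0.134 to 0.164 CPM (counts scaled to the depth of a library). The 13 mitochondrial genes took 2.05% to 2.54% of the counts. No pair of libraries agreed within sampling noise (chi-square per gene of 6.98 to 58.3). Libraries of a group were not always closest to each other. Replicate 3 of TBHP+FGF21 was the farthest from the TBHP libraries (38.3 to 58.3), replicates 1 and 3 of TBHP+FGF21 differed by 22.9, and replicate 3 of TBHP differed from the others of its group by 21.3 and 23.3. Replicate 2 of TBHP+FGF21 was nearer to the TBHP libraries (7.36, 9.52 and 8.52) than to its own group (22.9 and 44.5), and the number of genes called depended on it. Values without it are therefore given beside those of all 6 libraries. It is the treated library most like the controls, so leaving it out favours a difference, and no change is called from that fit. Levels of single genes below are CPM after TMM scaling. The summed CPM of markers and the upper limit of a 0 are scaled to the total counts of a library only. Differences are log2 fold changes of TBHP+FGF21 against TBHP from edgeR's quasi-likelihood test, with p-values adjusted by Benjamini-Hochberg over all 11426 genes tested. CPM are not corrected for transcript length, so levels were compared between groups and not between genes.

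The cells carried few defining notochordal markers. Tbxt, Shh and Noto had no counts in any library, Col2a1 had 9 to 14, and Krt18 and Epyc had at most 3 and 2. Sox9 had 108 to 260 counts, Krt8 53 to 91, and the others of that list at most 57. Acan, the proteoglycan of disc and cartilage, had 47999 to 99894 counts. The 13 nucleus pulposus markers in the table summed to 2520 to 2940 CPM in TBHP and 2870 to 4470 CPM in TBHP+FGF21, nearly all of it Acan. The 10 fibroblast and annulus markers summed to 42800 to 46600 and 33400 to 44800 CPM. Adipocyte markers, of interest because Pparg and Angptl4 are high in fat, summed to only 2.33 to 2.59 CPM in TBHP and 1.76 to 2.68 CPM in TBHP+FGF21, with at most 2 counts of Adipoq in a library. Of 9 leukocyte markers (32.2 to 37.9 against 27.3 to 34.1 CPM), Ptprc, Adgre1 and Tyrobp were at 0. Cd14 had 527 to 701 counts a library and made up most of the sum. Cd68 had 28 to 52 counts, and the rest of these markers at most 10. Endothelial markers summed to at most 1.1 CPM. Skeletal muscle markers summed to 13 to 16 CPM in TBHP and 13.2 to 15.8 CPM in TBHP+FGF21, and erythroid markers to at most 0.0467 CPM. In such bulk samples, fewer cells of a type and less RNA per cell cannot be told apart. A low row in this table was also not read as absence, since Col1a2, the usual partner of Col1a1, had 7 to 17 counts beside 639245 to 862314 for Col1a1.

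With all 6 libraries, none of the 9 genes passed an adjusted p of 0.05, and of all genes tested 1 did (0.00875%). That gene was Sirt1, whose row in the combined table equals no row of the per-sample files, and from the unstranded per-sample counts no gene passed. The filter on low counts left 6 of the 9, since Ppargc1a, Ppargc1b and Angptl4 had too few reads. At an unadjusted p under 0.05, which 8.92% of all genes tested reached, the 3 genes Pparg, Pdk4 and Cpt1a were all higher in TBHP+FGF21, where 4.63% of all genes were higher and 4.29% lower at that level. Without replicate 2 of TBHP+FGF21, the adjusted p of Pparg, Cpt1a and Ppard was under 0.05 by the same edgeR fit, where 7.5% of 11559 genes were below it, 3.78% higher and 3.72% lower. The number of genes below it went from 1 to 867 when this library was left out and was 0 or 1 when any other was, with none of the 9 genes among them.

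**Figure D1:**
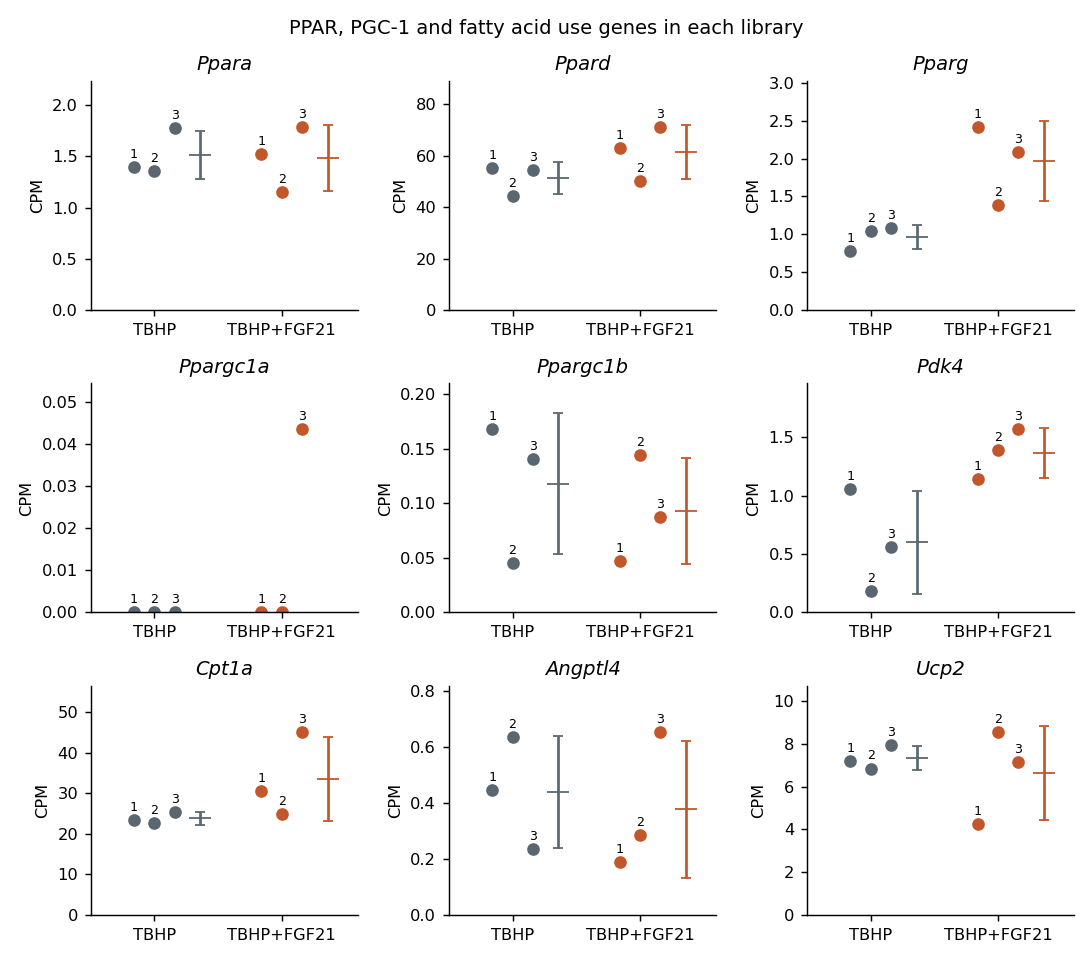
Level of each of the 9 genes in each library, in CPM after TMM scaling (vertical axes start at 0 and differ between panels). Points are libraries with their replicate number, and bars are the mean and SD of 3 libraries (no bar for Ppargc1a, which had 1 count in all). The groups are apart for Pparg and Pdk4 and overlap for the other 7 genes.

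Among the receptors, Pparg (ENSRNOG00000008839), the PPAR best known from fat cell differentiation, had the largest difference. It stood at 0.782, 1.04 and 1.08 CPM in the TBHP libraries and at 2.42, 1.39 and 2.09 CPM in the TBHP+FGF21 libraries, which came from 14 to 23 and 29 to 51 counts. The groups did not overlap, all TBHP+FGF21 libraries being higher, and the lowest of these was replicate 2. The means were 0.968 ± 0.162 CPM and 1.97 ± 0.526 CPM (SD, n = 3), a fold of 2.01 and a log2 fold change of 1.01 (SE 0.29, 95% interval 0.37 to 1.65). The unadjusted p of edgeR's quasi-likelihood test was 0.00504, rank 56 of all genes tested, and the adjusted p by Benjamini-Hochberg was 0.553. A two-sided exact permutation test over the libraries gave p = 0.1, the smallest that 3 against 3 allow. Without replicate 2 of TBHP+FGF21 the value was 1.21 (SE 0.3, interval 0.58 to 1.84, adjusted p = 0.0216 by the edgeR test). With single libraries left out the value lay between 0.85 and 1.21, and the unadjusted p was under 0.05 in all 6 of these fits.

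Ppard (ENSRNOG00000000503), the PPAR that is expressed in most tissues, was counted 976 to 1634 times in a library. Its levels were 55.2, 44.3 and 54.4 CPM in TBHP and 63, 50.2 and 71.2 CPM in TBHP+FGF21. The groups overlapped, because replicate 2 of TBHP+FGF21 was below replicates 1 and 3 of TBHP. The log2 fold change was 0.26 (SE 0.13, interval -0.03 to 0.55, unadjusted p = 0.0725, adjusted p = 0.558 by the edgeR test). Without that library the value was 0.4 (SE 0.12, adjusted p = 0.0431 by the edgeR test), and without replicate 3 of TBHP+FGF21 the value was 0.15.

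Ppara (ENSRNOG00000021463), the receptor of the fasting response in liver, was low in both groups. It was at 1.4, 1.36 and 1.78 CPM in TBHP and at 1.52, 1.15 and 1.79 CPM in TBHP+FGF21. The levels of the groups lay on top of each other, with a log2 fold change of -0.03 (SE 0.27, interval -0.62 to 0.56, adjusted p = 0.98 by edgeR with Benjamini-Hochberg adjustment). With 24 to 41 counts a library, changes of the size that the interval spans were not detectable in either direction. The point estimate ran from -0.18 to 0.14 as single libraries were left out, so it has no stable sign.

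The coactivators were at the limit of detection. Ppargc1a, which encodes PGC-1α, had 1 count in all 6 libraries, in replicate 3 of TBHP+FGF21, and 0 in the other 5, which allows up to 0.164 CPM in a library. Ppargc1b (ENSRNOG00000017503) had 3, 1 and 3 counts in TBHP and 1, 3 and 2 counts in TBHP+FGF21. Neither gene could be compared at this depth, and no fold is given. Replicate 3 of TBHP+FGF21, in which the only Ppargc1a read was found, was also the deepest library. It held 22426190 counts, against 22025211 in replicate 2 of TBHP, and a part of depth in that read was not tested.

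Of the targets, Pdk4 (ENSRNOG00000009565) had the largest fold of the 6 genes tested and the largest spread. It was at 1.06, 0.181 and 0.563 CPM in TBHP, from 19, 4 and 12 counts, and at 1.14, 1.39 and 1.57 CPM in TBHP+FGF21, from 24, 29 and 36 counts. The groups did not overlap, but replicate 1 of TBHP was close to replicate 1 of TBHP+FGF21, and the TBHP libraries spread more among themselves than the TBHP+FGF21 libraries did. Means were 0.602 ± 0.441 and 1.36 ± 0.217 CPM (SD, n = 3), a fold of 2.34 and a log2 fold change of 1.23 (SE 0.45, interval 0.26 to 2.2). The unadjusted p was 0.0175 and the adjusted p was 0.553 by the edgeR test, and the two-sided exact permutation test gave 0.1. Pdk4 was the one gene of the 4 with higher levels whose value did not move without replicate 2 of TBHP+FGF21 (1.23, adjusted p = 0.115 by the edgeR test). The TBHP libraries set its size. It was 0.77 (unadjusted p = 0.0735) without replicate 2 of TBHP and 1.88 (unadjusted p = 0.0029) without replicate 1 of TBHP, both by the same test.

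Cpt1a (ENSRNOG00000014254), which makes the acylcarnitines that carry long-chain fatty acids into mitochondria, had 417 to 1037 counts a library. It was at 23.3, 22.6 and 25.5 CPM in TBHP and at 30.6, 25 and 45.2 CPM in TBHP+FGF21. The TBHP libraries were close together, and the TBHP+FGF21 libraries ranged from just under the highest TBHP library (replicate 2) to well above all of them (replicate 3). The fold was 1.41 and the log2 fold change 0.5 (SE 0.18, interval 0.11 to 0.89, unadjusted p = 0.0161, adjusted p = 0.553 by the edgeR test), and the two-sided exact permutation p was 0.2. Without replicate 2 of TBHP+FGF21 the value was 0.68 (SE 0.14, interval 0.38 to 0.98, adjusted p = 0.00822 by the edgeR test), the smallest adjusted p of those of the 9 genes that were tested. Without replicate 3 of the same group it was 0.23 (unadjusted p = 0.102 by the same test).

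Within TBHP+FGF21, Cpt1a and Ppard were highest in replicate 3, next in replicate 1 and lowest in replicate 2. The summed nucleus pulposus markers had the same order (4470, 3500 and 2870 CPM), but the sum was nearly all Acan (99894, 73375 and 59836 counts). Sox9, the chondrocytic transcription factor, shared the order with 260, 168 and 128 counts, as did Cd24 with 48, 21 and 15. Krt8 (53, 67 and 63), Car3 (33, 16 and 53) and the rest of that list did not. The summed fibroblast markers ran the other way (33400, 41900 and 44800 CPM), carried by Col1a1 (639245, 776930 and 838060 counts), whereas Pdgfra (3368, 2699 and 1878 counts) had the order of Cpt1a. The part of these markers in the results was not tested. Pparg and Pdk4 did not follow that order, since Pparg was highest in replicate 1 and Pdk4 lowest there.

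Angptl4 (ENSRNOG00000007545), a secreted inhibitor of lipoprotein lipase and a classical PPAR target, overlapped between the groups. It was at 0.447, 0.635 and 0.234 CPM in TBHP and at 0.19, 0.287 and 0.654 CPM in TBHP+FGF21, from 4 to 15 counts. Both groups spanned nearly the same range, and fitted without the filter the log2 fold change was -0.19 (SE 0.57, interval -1.37 to 0.99, unadjusted p = 0.745 by edgeR). The interval is wide in both directions at this depth.

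Ucp2 (ENSRNOG00000017854), a carrier of the inner mitochondrial membrane from the uncoupling protein family, was at 7.21, 6.85 and 7.97 CPM in TBHP and at 4.26, 8.57 and 7.15 CPM in TBHP+FGF21. The TBHP+FGF21 group held both the lowest library, replicate 1, and the highest, replicate 2. The log2 fold change was -0.14 (SE 0.22, interval -0.62 to 0.34, adjusted p = 0.829 by the edgeR test). Its sign depended on replicate 1, the library labelled FGF21, since it was 0.11 without that library and -0.35 without replicate 2. With that library alone against TBHP it was -0.78 (unadjusted p = 0.00273, adjusted p = 0.0746 by the edgeR test, which takes its spread from the TBHP libraries).

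**Figure D2:**
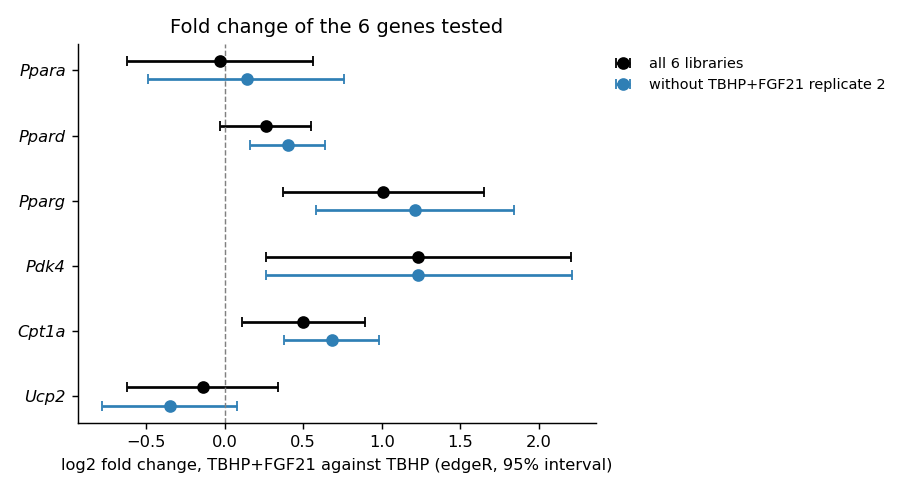
Log2 fold change of TBHP+FGF21 against TBHP for the 6 genes tested, by edgeR, with 95% intervals, from all 6 libraries and without replicate 2 of TBHP+FGF21. With all libraries the intervals of Pparg, Pdk4 and Cpt1a lie above 0, and without replicate 2 that of Ppard does as well.

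Pparg and Pdk4 were the 2 of the 6 genes tested whose groups did not overlap, as was so for 9.9% of all genes tested, and in 4.9% of all genes the TBHP+FGF21 libraries were the higher ones. The threshold that the study set (absolute log2 fold change over 1, p under 0.05, taken here as unadjusted) was also passed by these 2 genes and by 0.534% of the genes tested. Without replicate 2 of TBHP+FGF21 it was passed by the same 2 and by 1.73%. Pparg was only just past it at 1.01. It was 0.97 by limma-voom, 0.99 with a replicate block, 0.89 without replicate 1 of TBHP and 0.85 without replicate 1 of TBHP+FGF21. Pdk4 was 0.77 without replicate 2 of TBHP. Both genes rest on low counts. By strand, 42% of the Pparg reads and 42.7% of the Pdk4 reads were in the third column of the per-sample files, and 49.5% for Cpt1a. Although the kit was directional by the labels, the strand columns had a ratio of 0.977 to 0.986 over each library, so reads of a gene and of any antisense partner could not be told apart, and unstranded counts were used. Counted from the third column alone, Pparg was 0.62 and Pdk4 0.97, neither with an unadjusted p under 0.05, and from the fourth they were 1.32 and 1.45 and both had an unadjusted p under 0.05 by the edgeR test.

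**Figure D3:**
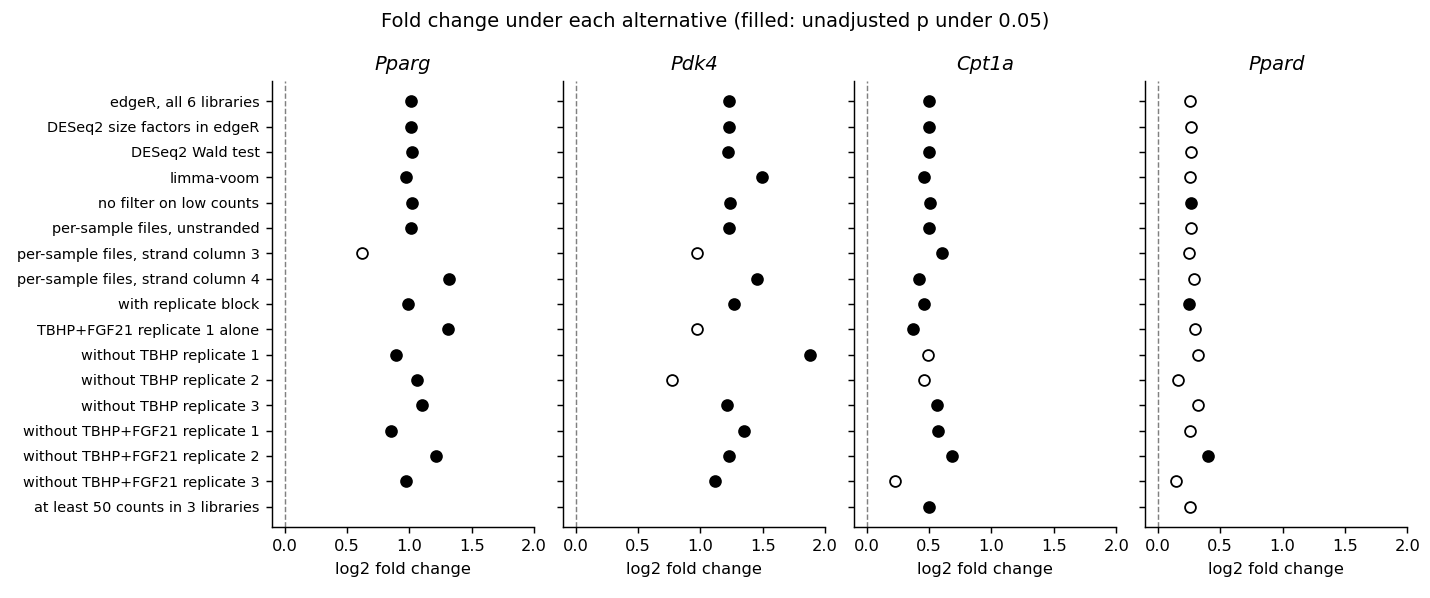
Log2 fold change of Pparg, Pdk4, Cpt1a and Ppard under each alternative, with filled points where the unadjusted p was under 0.05. All values are above 0, those of Pdk4 range most widely, from 0.77 to 1.88, and those of Ppard are mostly open.

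The machinery around the receptors was examined through lists of known genes, for which counts in each direction are set beside all genes tested (5592 higher, 5834 lower, median log2 fold change -0.01). No list gene passed the adjusted p with all 6 libraries, where each adjusted p was 0.553 or more by the edgeR test with Benjamini-Hochberg adjustment. Of 10 genes tested from a list of PPAR partners and other nuclear receptors, 8 were higher and 2 lower (median 0.13). Rxra, a retinoid X receptor and PPAR partner, was at 31.9 ± 3.48 CPM in TBHP and 41 ± 6.43 CPM in TBHP+FGF21 (SD, n = 3). Its groups did not overlap, and its log2 fold change was 0.37 (SE 0.13, unadjusted p = 0.0146 by the edgeR test). Rxrb, another retinoid X receptor, overlapped between the groups at 45.1 and 46.9 CPM (0.06, SE 0.1), and Rxrg had no counts in any library. Nr1d1, a haem-binding repressor of the clock, was at 50.2 and 71.1 CPM (0.5, SE 0.15). Without replicate 2 of TBHP+FGF21 the values were 0.47 for Rxra, 0.07 for Rxrb and 0.64 for Nr1d1.

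Of 14 coactivators and corepressors tested, 13 were higher and 1 lower (median 0.16). Lpin1, a phosphatidate phosphatase that also works as a coactivator of PPARα and PGC-1α, was at 7.81 and 10.4 CPM (0.42, SE 0.19, unadjusted p = 0.0474). Carm1, an arginine methyltransferase recruited by coactivators, was at 85 and 104 CPM (0.29, and 0.45 without replicate 2). Among 12 genes tested from a list of PGC-1 partners and mitochondrial biogenesis genes, 3 were higher and 9 lower (median -0.05). Esrra, which encodes the oestrogen-related receptor through which PGC-1α acts on mitochondrial genes, was at 99.9 ± 19.8 and 80.3 ± 17.4 CPM (-0.31, SE 0.16, unadjusted p = 0.0785), and -0.5 without replicate 2. Nrf1, a nuclear respiratory factor, differed the other way without overlap, at 25.5 and 31 CPM (0.28, SE 0.1, unadjusted p = 0.0163).

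Upstream of PGC-1, 11 of 15 genes tested from the AMPK, CREB and MEF2 inputs were higher (median 0.13). The CREB coactivators Crtc3 (5.35 and 7.63 CPM, 0.51, SE 0.15, no overlap) and Crtc2 (45.5 and 57.3 CPM, 0.33, SE 0.13) had the smallest p-values of the list, with 0.59 and 0.46 without replicate 2. For the hormone itself, Klb, which encodes β-Klotho, and Fgfr4 had no counts in any library, and Fgf21 was not analysed here. Fgfr1, the main receptor partner of β-Klotho, was at 136 ± 14.9 and 172 ± 20.2 CPM without overlap (0.33, SE 0.11, unadjusted p = 0.0131) and was 0.42 without replicate 2. Fgfr2 was at 95.7 and 108 CPM (0.17, SE 0.11).

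The enzymes that use the same fuels had medians near that of all genes. Of 29 genes tested for mitochondrial and peroxisomal fatty acid oxidation, 17 were higher and 12 lower, with a median of 0.04. Cpt1b, the muscle form of CPT1, was at 3.55 and 4.65 CPM (0.39, SE 0.2, unadjusted p = 0.0769), and Cpt2, the enzyme on the inner membrane that follows Cpt1a in the same route, at 26.9 and 29.4 CPM (0.13, SE 0.13). Crat, carnitine acetyltransferase, was the gene of the list with the smallest p, at 99.9 and 121 CPM (0.28, SE 0.12, and 0.39 without replicate 2). Acaa2, the last thiolase of mitochondrial β-oxidation, was at 15 and 18 CPM (0.26, unadjusted p = 0.0649).

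In fatty acid uptake, binding and activation, 7 of 11 genes tested were higher (median 0.08), and the 2 with the smallest p were lower. Acsl4, an arachidonate-preferring acyl-CoA synthetase, was at 66.7 and 52.8 CPM and Fabp3, a fatty acid carrier, at 22 and 17.7 CPM. On the log2 scale these are differences of -0.34 and -0.31, and of -0.5 and -0.47 without replicate 2. The PPAR targets Cd36, a fatty acid translocase, and Lpl, lipoprotein lipase, were at 0 counts and at most 3 counts a library. Of 9 genes tested for lipid droplets and lipases, 7 were lower (median -0.15). Plin2, a droplet coat protein and common PPAR target, was at 94.5 ± 4.95 and 99.8 ± 15.1 CPM (0.08, SE 0.11). G0s2, an inhibitor of triglyceride lipase, was at 8.06 and 5.92 CPM (-0.45, and -0.77 without replicate 2), and Mgll, monoglyceride lipase, was at 9.11 and 7.42 CPM (-0.3).

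Among 4 ketone body genes tested, 2 were higher and 2 lower. Bdh1, the dehydrogenase of β-hydroxybutyrate, was at 23.7 and 17.9 CPM (-0.41, and -0.69 without replicate 2). Oxct1, which starts ketone use, was at 108 and 117 CPM (0.13). Of 13 genes of pyruvate dehydrogenase and its control, 5 were higher and 8 lower (median -0.05). Of the other kinases of the complex, Pdk1 was at 32.3 and 30.9 CPM (-0.06, SE 0.1), Pdk2 at 22.3 and 25.5 CPM (0.19, SE 0.14) and Pdk3 at 23.4 and 24.2 CPM (0.05, SE 0.13). Pdp1, the phosphatase that undoes their work, was at 18.1 and 22.4 CPM (0.3, unadjusted p = 0.0432), and Dld, a subunit of the complex, at 72.2 and 62.5 CPM (-0.21). The difference between Pdk4 and the other kinases was not itself tested.

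Of the relatives of Angptl4 and Ucp2, 4 of 10 could be tested, 2 higher and 2 lower. Angptl2, a secreted angiopoietin-like protein, was at 106 ± 12.4 and 141 ± 29 CPM (0.41, SE 0.14, unadjusted p = 0.014) and was 0.57 without replicate 2. Slc25a14, a mitochondrial carrier related to the uncoupling proteins, was at 4.03 and 4.44 CPM (0.14). Ucp1, the uncoupling protein of brown fat, and Ucp3, that of muscle, had no counts in any library.

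**Figure D4:**
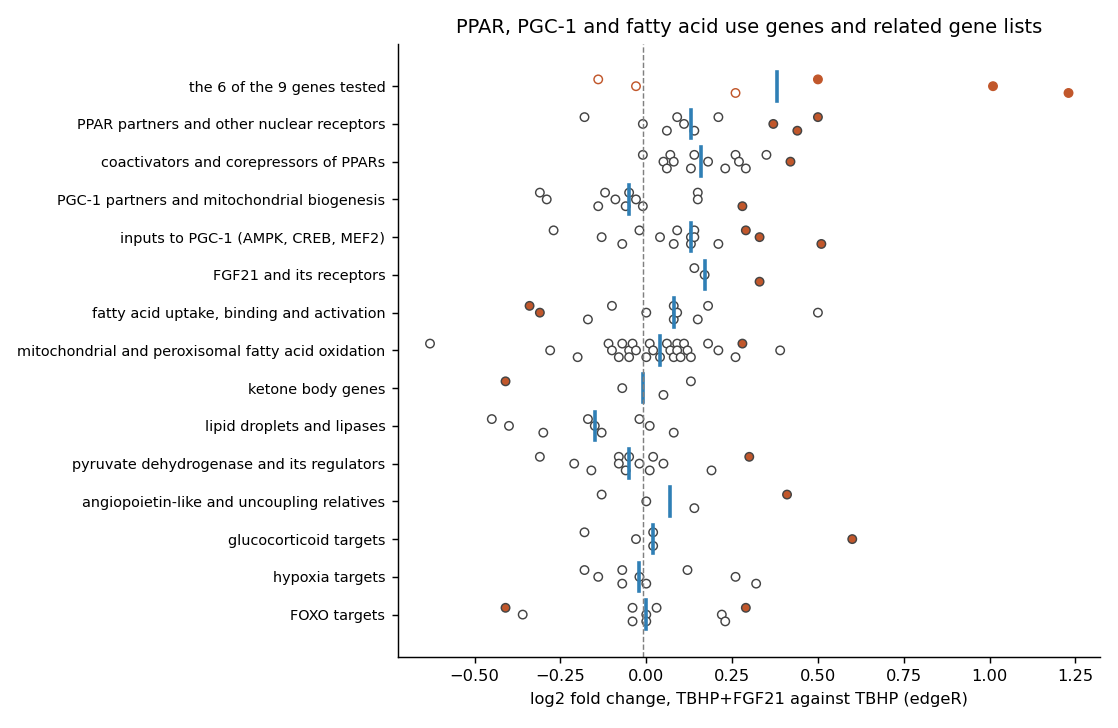
Log2 fold change of TBHP+FGF21 against TBHP by edgeR for the 6 of the 9 genes tested and for each list (open points, genes; filled points, unadjusted p under 0.05; blue bars, list medians). The dashed line is the median of all genes tested, -0.01. List medians lie between -0.15 and 0.17, and that of the 6 genes is 0.38. The genes and lists were chosen with earlier results of these data known, Pparg and Pdk4 rest on low counts, and the medians were not tested against each other.

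Profiles over the 6 libraries were compared by the root mean square difference of mean-centred log2 CPM. For Cpt1a the nearest genes were Serping1 (0.0512), Mapre2 (0.0666) and Ndrg4 (0.0674), against an SD of Cpt1a itself of 0.374. For Pparg they were Vgll2 (0.148), Slc22a23 (0.181) and Igsf10 (0.181), against an SD of 0.587. For Pdk4, with an SD of 0.973, the nearest were Colgalt2 (0.23), Sgsm1 (0.396) and Lrch2 (0.397). This likeness is a description over 6 libraries that share their group, and none of these genes belongs to the lists above.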

How the data were processed

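RNA-seq libraries were made from poly(A) RNA with a directional kit. The authors deposited raw counts per Ensembl gene for each library (whole counts, unstranded and by strand) and a combined table of raw counts per symbol, without normalization. The combined table was treated as estimated counts, because 22 of the rows that the authors deposited were not whole, and these were rounded up. The submitters' processing notes name STAR and featureCounts, and versions, genome build and annotation are not given in the sources used here. The study names Student's t-test and ANOVA for its data in general, and a count test was used here.

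Identifiers were linked to symbols by identical counts. With at least 1 count, 14859 whole rows equalled 1 or more rows of the per-sample files. A symbol was linked only where a single identifier matched, as for 8 of the 9 genes. Ppargc1a was not linked, since 200 identifiers had its counts. All 6 columns were mapped by title, and 0 columns were left out. Counts were filtered by filterByExpr (minimum count 10, minimum total 15), scaled by TMM and tested by glmQLFTest in edgeR 4.0.16 (R 4.3.3), with condition as the only term and Benjamini-Hochberg adjustment over 11426 genes. Scripts were tested on simulated data. The exact permutation test was two-sided, on log2(CPM + 0.1). Intervals and upper limits cover counting error or library spread only.

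The 9 genes, the 14 lists and the markers were chosen with earlier results of these data known. The genes named were all 9, the 2 genes of each list with the smallest p with all 6 libraries (none passed the adjusted p, which would have come first), partners of the 9 fixed by name, and the 3 nearest profiles of the 3 most variable genes. Rxrb and Rxrg were named beside Rxra as the other retinoid X receptors. Alternatives were DESeq2 1.42.0, its size factors, limma-voom (limma 3.58.1), other filters, per-sample and strand counts, a replicate block, replicate 1 of TBHP+FGF21 alone and leaving out each library. Dusp1, Echs1, Eci2, Ep300, Fabp5, Fgf21, Hilpda, Pnpla2 and Prkag1 were not analysed here.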

Additional observations from a re-analysis of the deposited data

How the results depend on the processing

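Depth limits Ppara, Pparg, Pdk4 and Angptl4, and Ppargc1a and Ppargc1b could not be compared. Against 1 gene with an adjusted p under 0.05, DESeq2's Wald test called 4, no filter 5, the replicate block 2, limma-voom 0, each per-sample column 0, replicate 1 of TBHP+FGF21 alone 325, and leaving out a library 0 to 867, the highest without replicate 2 of TBHP+FGF21. At an unadjusted p under 0.05 the counts were 1019 genes, 1599 with the block, 1669 for replicate 1 alone (its spread taken from the TBHP libraries) and 337 to 2732 with a library left out. Of the 9 genes, 0 passed the adjusted p, and 0 to 3 with a library left out. The unadjusted p was passed by 3 of them, and by 8.92% of all genes tested. With at least 50 counts in 3 libraries it was passed by 1 (868 of 9996 genes), and Pparg and Pdk4 were no longer tested. In strand column 3 it was passed by 1 (956 of 11937 genes). Without a filter it was passed by 4 (1438 of 14882 genes), and with the replicate block by 4 (1599 of 11426 genes). Leaving out a library gave from 1 without replicate 2 of TBHP (337 of 11536 genes) to 4 without replicate 2 of TBHP+FGF21 (23.6% of 11559 genes). Ppara was 0.08 in strand column 4, 0 for replicate 1 alone and -0.18 to 0.14 with a library left out, and Ucp2 -0.35 to 0.11. Leaving out a library gave 0.15 to 0.4 for Ppard, 0.85 to 1.21 for Pparg and 0.23 to 0.68 for Cpt1a. The cause was not tested. Over the other alternatives Cpt1a was 0.37 to 0.6, Pdk4 0.97 to 1.49, Pparg 0.62 to 1.32, Ppard 0.25 to 0.3 and Ucp2 -0.78 (replicate 1 alone) to -0.1. Correlations of same-numbered deviations were -0.12, 0.21 and 0.15, and those of differently numbered ones lay between -0.26 and 0.18. Whether replicate numbers pair the samples was not settled by these values. With the replicate block Cpt1a was 0.46, Pparg 0.99, Pdk4 1.27, Ppard 0.25, Ucp2 -0.17 and Ppara -0.04, and it changed no call at the adjusted p for these genes.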

Other observations

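Pdk4, Cpt1a and Angptl4 also respond in other tissues to glucocorticoids, FOXO factors and hypoxia, and lists of genes known for those inputs were counted in the same comparison. Among 5 glucocorticoid targets tested, 3 were higher and 2 lower in TBHP+FGF21 (median log2 fold change 0.02). Per1, a clock gene that glucocorticoids and CREB both induce, was at 54.8 ± 5.54 CPM in TBHP and 83.3 ± 20 CPM in TBHP+FGF21 (SD, n = 3), without overlap, with a log2 fold change of 0.6 (SE 0.16, unadjusted p = 0.00236, Benjamini-Hochberg adjusted p = 0.553 by the edgeR test). Without replicate 2 of TBHP+FGF21, the treated library nearest to the controls, it was 0.8. Sgk1, a serum and glucocorticoid induced kinase, was at 289 and 254 CPM (-0.18, SE 0.11).

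Of 10 FOXO targets, 5 were higher and 5 lower (median 0). Gadd45a, a growth arrest gene, was at 364 ± 9.09 and 275 ± 78.4 CPM (-0.41, SE 0.16, and -0.63 without replicate 2). Sesn3, a sestrin that restrains mTORC1, was at 38.5 and 47.2 CPM (0.29, SE 0.13, and 0.4 without it). Of 9 hypoxia targets tested, 4 were higher and 5 lower (median -0.02). Ndrg1 was at 76.5 and 91.6 CPM (0.26, SE 0.13, and 0.42 without replicate 2), and Adm, which encodes adrenomedullin, was at 10.7 and 13.3 CPM (0.32, SE 0.17).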
